A study of Mus musculus with 8 samples.

Results

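The 14-3-3 proteins are encoded in the mouse by a small gene family, of which Ywhaz (14-3-3 zeta), Ywhab (beta), Ywhae (epsilon), Ywhag (gamma), Ywhah (eta) and Ywhaq (theta) are described here. These 6 genes, of 18138 gene symbols on the array, were read by every probe that carries their symbol, 9 probes of 25697, each taken separately. Primary mouse aortic smooth muscle cells (AoSMCs), grown out of explants of several aortas, were given either a scrambled control oligonucleotide or a mimetic of moR-21 with a lipid reagent (RNAiMAX). Both were used at 5 nM and RNA was taken after 48 h. Each treatment had 3 samples on 4 arrays, since arrays A and B were both run for control sample 1 and for moR-21 sample 3. The labels give no strain, age or sex for these cells and do not say that the samples came from separate cultures, so the p-values measure the spread between these samples, which may be technical.

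Of 10 smooth muscle markers on the array 6 were detected on 1 or more arrays, while Myh11, Cnn1, Actg2 and Myocd were not. The mean log2 signal in control samples was 13.18 for Acta2 and 8.73 for Smtn. It was only 6.79 for Lmod1 and 6.74 for Tagln, close to background. A description in the labels names AoECs, but 8 of 10 endothelial markers, Pecam1, Cdh5 and Kdr included, were not detected. Vwf and Egfl7 were detected, with a mean log2 signal of 6.89 and 8.26 in control samples. Also not detected were 7 of 10 macrophage markers. Of 10 markers of adventitial fibroblasts 8 were detected. The summed normalized signal of the smooth muscle markers was 10503 to 10867 in control samples and 13243 to 14080 in moR-21 samples. Most of this sum was Acta2, with a log2 signal of 13.18 and 13.58 as group means and a log2 fold change of 0.40. Of the other detected markers, Tagln had 0.20, Lmod1 0.05, Cald1 −0.00, Smtn −0.05 and Des −0.38. The sum of the fibroblast markers was 31331 to 32327 in control samples and 25223 to 27060 in moR-21 samples. Of the 8 detected, 7 were lower and 1 higher, with a median log2 fold change of −0.23, beside 0.01 over all detected genes. The brightest, Serpinf1 and Dcn, had −0.24 and −0.22, and the largest fall was that of Ly6a, −1.24. The sums were 1215 to 1260 and 1223 to 1238 for endothelial markers, and 2334 to 2403 and 2171 to 2204 for macrophage markers, of which Cd14 had a log2 fold change of −0.27, Lyz2 0.48 and Csf1r −0.01. The part of these shifts in the 14-3-3 results was not tested. Fewer cells of a type and less RNA per cell cannot be told apart in such bulk samples.

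14-3-3 proteins form dimers with a groove in each subunit that holds short phosphorylated motifs of other proteins. By binding these clients they keep them in the cytoplasm, mask their active sites or bring partners together, as for the death protein Bad, FoxO factors and the co-activator Yap1. Subunits of most isoforms can pair with each other, so a cell's 14-3-3 pool is a mixture. Ywhaz is broadly expressed and is often used as a reference gene in qPCR.

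moR-21 is a small RNA cut from the primary transcript of miR-21, next to the mature miRNA, and the study lists Ywhaz among its predicted targets. Both sequences are shown because target prediction rests on the seeds, bases 2 to 8, which are in capitals. They were read from the RefSeq hairpin of Mir21a (GRCm38.p6, minus strand), at chr11:86584142-86584158 for the moR-21 stretch and chr11:86584120-86584141 for miR-21a-5p. The upper stretch runs from the annotated start of the hairpin to the base before miR-21a-5p. moR-21 was placed on it by GUACC, the bases common to the first of its tested seed windows, taken as bases 3 to 7. Its base 1 then lies just before the annotated hairpin and is not shown.
moR-21 stretch of the hairpin: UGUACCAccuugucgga
miR-21a-5p: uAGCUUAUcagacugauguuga
In DNA letters, a transcript complementary to the moR-21 seed reads TGGTACA, and one complementary to the miR-21a-5p seed reads ATAAGCT. Sequences of the 14-3-3 transcripts were not used here.

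Of the 9 family probes, 6 were detected and tested, and these cover 5 of the 6 genes (Ywhaz, Ywhab with 2 probes, Ywhag, Ywhah and Ywhaq). Only Ywhaz was called, and it was lower after the moR-21 mimetic. Of the other tested probes, Ywhah and Ywhag were higher and Ywhaq and the brighter Ywhab probe lower, none with a call. Calls required both a fold change past 1.3 and an adjusted p below 0.002. That makes 1 of 6 family probes called, beside 6.96% of all 11651 tested probes, with 1 lower, beside 3.85%, and 0 higher, beside 3.12%. An unadjusted p under 0.05 was found for 4 of 6 (Ywhaz, Ywhah, Ywhag and Ywhaq), beside 42.2%. The family was split, with 3 tested probes lower and 3 higher and a median log2 fold change of −0.04, beside 0.00 over all tested probes. No family probe changed sign under normexp background correction, median scaling or cyclic loess. Levels of different probes cannot be compared on this array, so the members are not ranked by abundance.

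Ywhaz, on chr15:36770261-36802984 (GRCm38.p6), has 6 RefSeq transcripts, and its detected probe was ILMN_2952914. The non-normalized intensity was 2119 on control array 1A, 1849 on 1B, 1702 in control sample 2 and 1931 in control sample 3. After the mimetic it was 1562 in sample 1, 1237 in sample 2, 1562 on array 3A and 1379 on array 3B. All 4 moR-21 arrays were thus dimmer than all 4 control arrays before any normalization. After quantile normalization the log2 signal was 10.85, 10.86 and 10.95 in control samples 1 to 3 and 10.58, 10.35 and 10.53 in moR-21 samples 1 to 3. The groups did not overlap, as was also so for 45.0% of all tested probes, and moR-21 sample 2 was the lowest. The means were 10.89 ± 0.0553 (SD, n = 3) and 10.49 ± 0.122 (SD, n = 3). The log2 fold change was −0.40 (SE 0.0602, 95% confidence interval −0.53 to −0.27, adjusted p = 1.57e-04 in limma), a fold change of −1.32. Counted from the largest fall, this was rank 406 of 11651 probes.

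**Figure D1:**
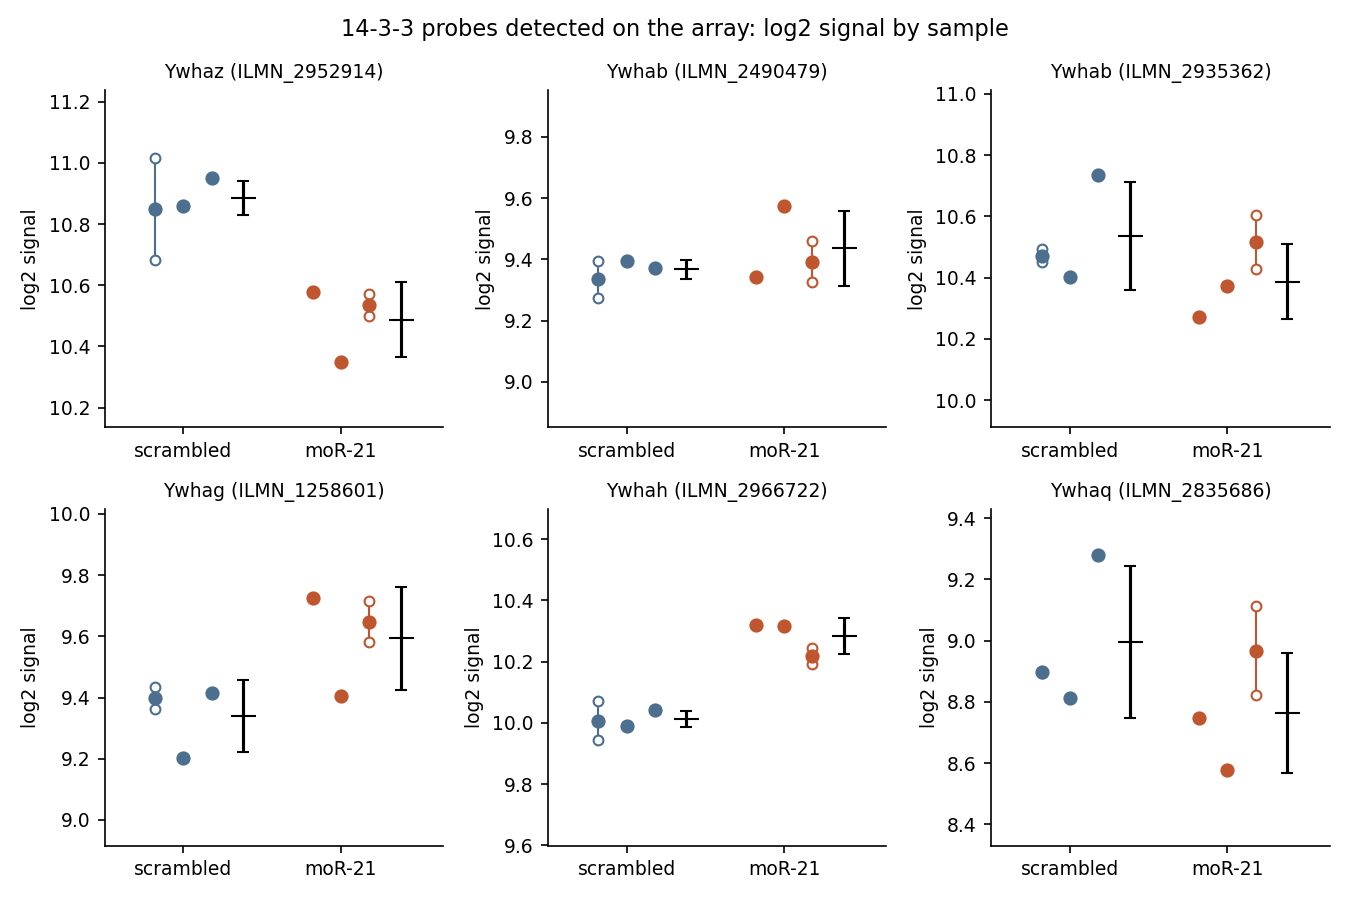
Log2 signal after quantile normalization (y axis, each panel spanning the same range) of the 6 detected 14-3-3 probes in scrambled control (blue) and moR-21 (orange) samples. Filled points are samples 1 to 3 from left to right, open points joined by a line are the A and B arrays of the sample run on both, and the bar is the mean ± SD (n = 3). Ywhaz and Ywhah are the panels in which the groups do not overlap, 2 of 6 probes, beside 45.0% of all tested probes.

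The size of the Ywhaz difference lay at the cutoff. The cutoff of 1.3-fold is 0.379 on the log2 scale and falls inside the confidence interval. The call was lost without control sample 3 (log2 fold change −0.37) and without moR-21 sample 2 (−0.33). Control sample 1 carried an unusual gap between its own arrays, with a log2 signal of 11.01 on array A and 10.68 on array B. This difference of 0.33 was as large or larger in 0.292% of all tested probes of that sample, whose median absolute difference was 0.0573. With array A of both repeated samples the log2 fold change was −0.44 (adjusted p = 1.22e-04 in limma), and with array B it was −0.35 (adjusted p = 0.00221 in limma) and not called. Under median scaling the difference was −0.42, and the call was lost on the adjusted p, 0.00269. The other Ywhaz probe, ILMN_2510612, was detected on 0 of 8 arrays (lowest detection p-value 0.297), so the gene was read by 1 probe.

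**Figure D2:**
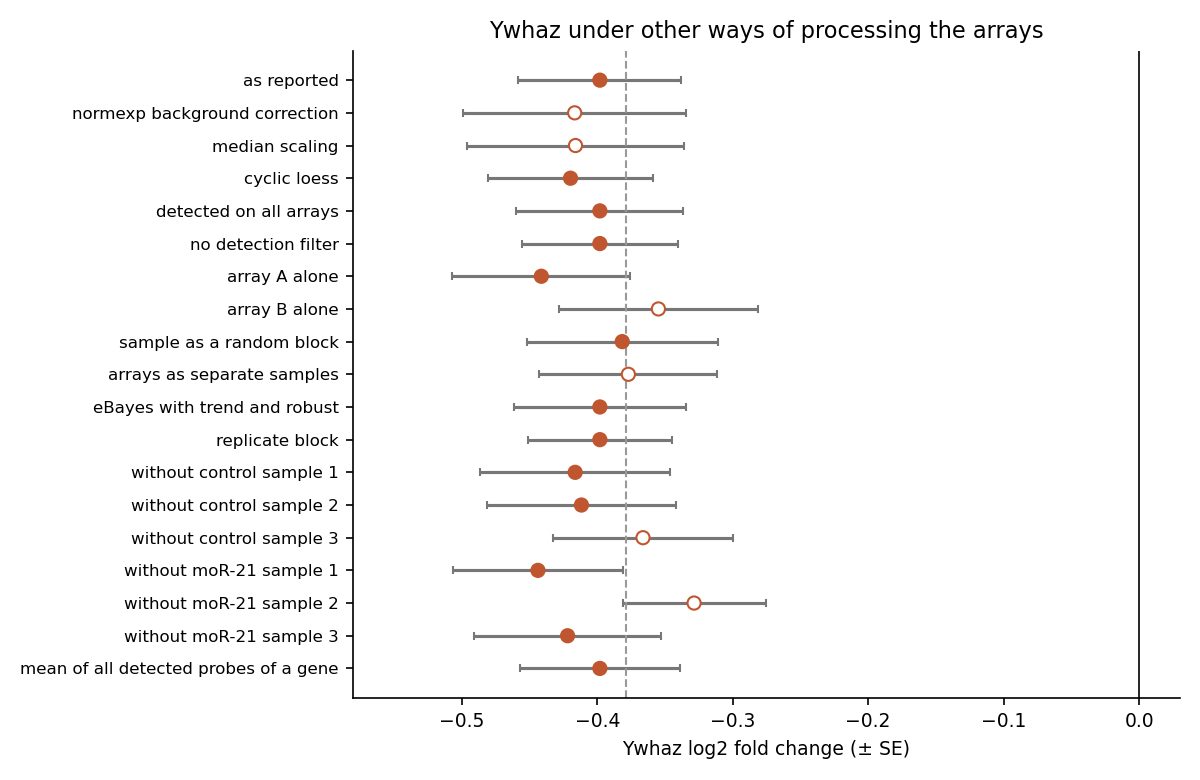
Log2 fold change of Ywhaz (x axis, bars ± standard error) as reported and under each other way of processing the arrays (y axis). Filled points were called, open points were not, and the dashed line marks the 1.3-fold cutoff. All points lie between −0.44 and −0.33, on both sides of the line.

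Ywhah, on chr5:33018816-33027966, differed in the other direction with little spread. Its log2 signal was 10.01, 9.99 and 10.04 in control samples 1 to 3 and 10.32, 10.32 and 10.22 in the moR-21 samples. All moR-21 samples lay above all control samples, and groups without overlap were found for 45.0% of all tested probes. The log2 fold change was 0.27 (SE 0.0475, 95% confidence interval 0.17 to 0.37, adjusted p = 5.29e-04 in limma). The adjusted p was under 0.002, as for 15.7% of all tested probes, but the fold change of 1.21 was under the cutoff, so Ywhah was not called. With 1 sample left out the adjusted p in limma reached 0.00356 (without control sample 2), and the log2 fold change stayed between 0.25 and 0.30. The upper end of the interval, 0.372, was also under 0.379. Ywhah had the smallest standard error in the family, and its arrays A and B differed by 0.13 in control sample 1 and 0.05 in moR-21 sample 3. The other Ywhah probe, ILMN_1253578, was not detected on any of the 8 arrays.

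Ywhag, on chr5:135908379-135934641, was also higher, with more spread. Its log2 signal was 9.40, 9.20 and 9.41 in control samples 1 to 3 and 9.73, 9.40 and 9.65 in the moR-21 samples. moR-21 sample 2 lay within the control range and the other moR-21 samples above it. The log2 fold change was 0.25 (SE 0.0772, 95% confidence interval 0.09 to 0.42, adjusted p = 0.0202 in limma), not called. An adjusted p under 0.05 was found for 3 of the 6 family probes, Ywhaz, Ywhah and Ywhag, beside 33.8% of all tested probes. The Ywhag value was 0.35 without moR-21 sample 2 (adjusted p = 0.00151 in limma) and 0.19 without control sample 2 (adjusted p = 0.106 in limma).

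Ywhab, on chr2:163995197-164018588, had 2 detected probes with different signs. The brighter, ILMN_2935362, had a log2 signal of 10.47, 10.40 and 10.73 in control samples 1 to 3 and 10.27, 10.37 and 10.52 in the moR-21 samples. moR-21 sample 3 lay within the control range. Its log2 fold change was −0.15 (95% confidence interval −0.32 to 0.02, adjusted p = 0.175 in limma). It was −0.05 without control sample 3, −0.09 without moR-21 sample 1 and −0.22 without control sample 2. The dimmer, ILMN_2490479, had a log2 signal of 9.33, 9.40 and 9.37 in control samples and 9.34, 9.57 and 9.39 in the moR-21 samples. Here the groups overlapped except for moR-21 sample 2, which was high. Its log2 fold change was 0.07 (95% confidence interval −0.06 to 0.19, adjusted p = 0.414 in limma). Over all samples, without pairing, both intervals end short of a 1.3-fold change in either direction and both include 0.

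Ywhaq, on chr12:21390329-21417436, was the most variable member. Its log2 signal was 8.90, 8.81 and 9.28 in control samples 1 to 3 and 8.75, 8.58 and 8.97 in the moR-21 samples. Sample 3 was the highest in both treatments, and moR-21 sample 3 lay within the control range. The log2 fold change was −0.23 (SE 0.108, 95% confidence interval −0.46 to 0.00, adjusted p = 0.117 in limma), not called. Its interval reached past the 1.3-fold cutoff on one side and almost to 0 on the other. Arrays A and B of moR-21 sample 3 differed by 0.29 for Ywhaq, and 1.21% of tested probes differed as much in that sample. Without control sample 3 the log2 fold change was −0.09, and without moR-21 sample 2 it was −0.14. The annotation also lists 3 pseudogenes of Ywhaq, and whether the probe reads them was not tested.

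**Figure D3:**
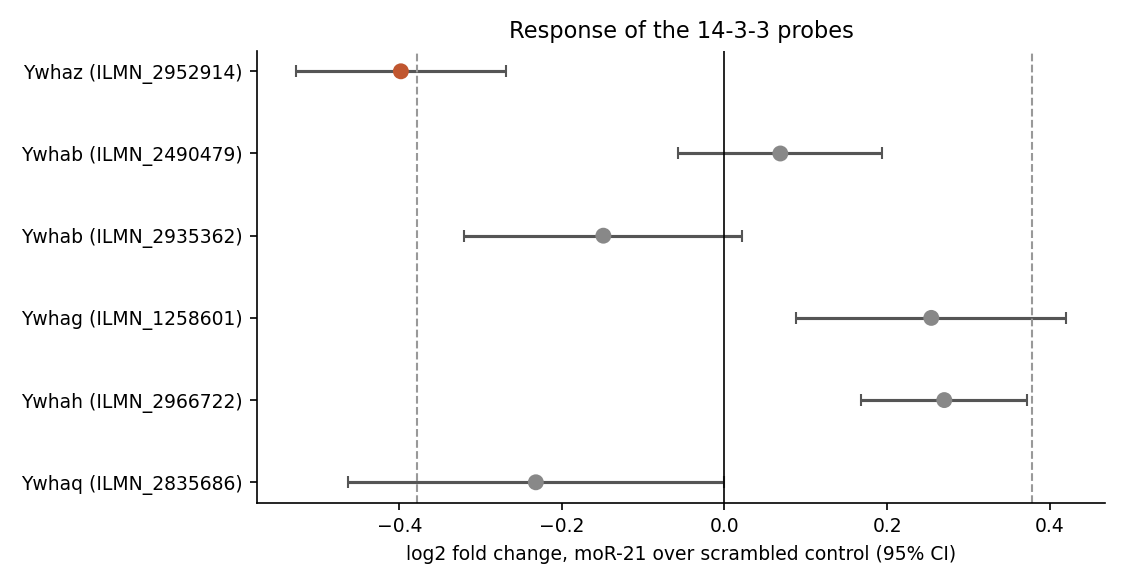
Log2 fold change of moR-21 over scrambled control samples (x axis) for each detected 14-3-3 probe (y axis), with the 95% confidence interval from limma. Dashed lines mark a 1.3-fold change. Ywhaz (orange, called) lies at −0.40 and Ywhah and Ywhag lie at 0.27 and 0.25, with intervals on the other side of 0.

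Ywhae, on chr11:75732887-75765841, was not well above background on any array. The intensity of its single probe, ILMN_1220100, was between 99.4 and 117.6. Its detection p-values were 0.0451, 0.0125, 0.01003 and 0.0138 on control arrays 1A, 1B, 2 and 3, just over the limit of 0.01. They were 0.0940, 0.358, 0.113 and 0.103 on moR-21 arrays 1, 2, 3A and 3B. No fold change is given, since the probe did not pass the detection limit on any array and was not tested. Sfn (14-3-3 sigma), the other member of the mammalian family and known mainly from epithelial cells, had 2 probes and neither was detected.

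The relative shift of Ywhaz against its relatives was read within each sample, as the log2 signal of Ywhaz minus that of the relative. Relative to Ywhah, this difference changed by −0.67 after the moR-21 mimetic. Counted from the control mean, it was −0.03, −0.00 and 0.03 in control samples 1 to 3 and −0.61, −0.84 and −0.55 in the moR-21 samples, without overlap. Relative to Ywhag it changed by −0.65, with −0.10, 0.11 and −0.01 in the control samples and −0.69, −0.60 and −0.66 in the moR-21 samples. The SD over moR-21 samples, 0.0462, was the smallest of the 5 comparisons. Over control samples it was 0.103, larger than for Ywhah (0.0328) and the dimmer Ywhab probe (0.0569). Relative to the dimmer Ywhab probe the change was −0.47, also without overlap, and relative to the brighter it was −0.25, with overlap. The dimmer Ywhab probe itself changed by 0.07, so this difference mostly repeats that of Ywhaz, whose groups did not overlap. For how many of all tested probes the difference from Ywhaz would be without overlap was not tested. Relative to Ywhaq the change was −0.17, with overlap, and it ranged from −0.28 without control sample 3 to −0.09 without control sample 2 or moR-21 sample 3, with −0.07 from array B alone. The two-sided exact permutation p was 0.1 for Ywhah, Ywhag and the dimmer Ywhab probe, the smallest that 3 samples against 3 allow, and 0.2 and 0.3 for the brighter Ywhab probe and Ywhaq. Adjusted over the 5 comparisons, the smallest exact permutation p was 0.167, so none could pass 0.05. The limma confidence interval of Ywhaz did not overlap with those of Ywhah, Ywhag and the dimmer Ywhab probe. It overlapped with those of Ywhaq and the brighter Ywhab probe. How many of all tested probes have an interval apart from that of Ywhaz was not tested.

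**Figure D4:**
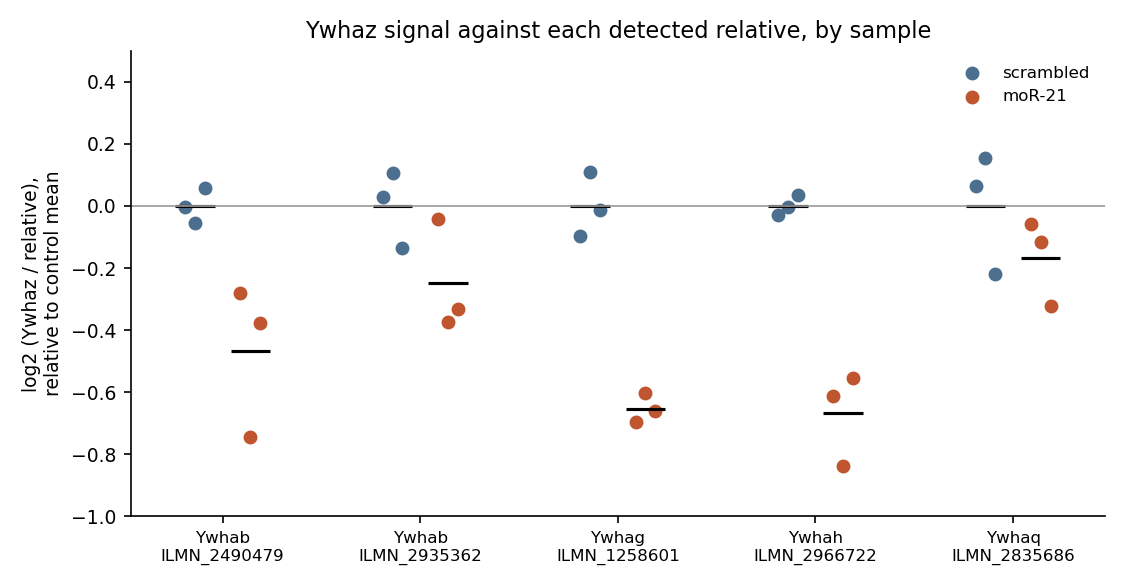
Log2 ratio of the Ywhaz signal to that of each other detected 14-3-3 probe in each sample, relative to the mean of the 3 control samples (y axis), for scrambled control (blue) and moR-21 (orange) samples. Short bars are group means (n = 3). The moR-21 samples lie apart from the controls for Ywhah, Ywhag and the dimmer Ywhab probe, and overlap with them for Ywhaq and the brighter Ywhab probe. The groups of Ywhaz alone do not overlap either, and the share of all tested probes that would lie apart was not tested.

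The genes most like Ywhaz were found by the root mean square difference over the 6 samples, with each probe centred on its own control mean. The nearest were Ppap2a (root mean square difference 0.0399), a phosphatase of lipid phosphates, Wwp2 (0.0414), a ubiquitin ligase, Nav1 (0.0458), Denr (0.0471), a factor of translation reinitiation, and Cdr2 (0.0486). Wwp2 fell, with a log2 fold change of −0.41 (adjusted p = 6.99e-05 in limma), and so did Denr, with −0.40 (adjusted p = 2.38e-05 in limma). The log2 fold changes of Ppap2a, Nav1 and Cdr2 were −0.37, −0.37 and −0.35 and not called. Their sample pattern and size of change follow from this choice. Without moR-21 sample 2 the calls of Wwp2 (−0.34) and Denr (−0.37) were lost, as was that of Wwp2 with its probes averaged (−0.19). Under normexp Denr had −0.87, and Ppap2a (−0.61) and Cdr2 (−0.44) were called, while Ywhaz had −0.42. Denr and Ppap2a were dim, with a mean log2 signal of 7.30 and 7.78 in control samples, beside 10.89 for Ywhaz. Their likeness in size to Ywhaz thus depends on the background correction. Ppap2a, Cdr2 and Nav1 were also called with some single samples left out. Of the relatives, Ywhaq came nearest, with 11.1% of tested probes closer to Ywhaz, followed by the brighter Ywhab probe, with 17.9% closer. The dimmer Ywhab probe, Ywhag and Ywhah were farther, with 73.7%, 90.9% and 92.3% of tested probes closer. All these values share the same arrays and normalization.

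The clients of 14-3-3 proteins were read from a list of 39 genes, of which 24 were detected. Of these 1 fell, Araf, 1 rose, Yap1, and 22 were not called, beside 7.79% of 8727 detected genes called, 4.38% lower and 3.41% higher. The median log2 fold change of the list was −0.02, beside 0.01 over all detected genes. Araf, a Raf kinase held inactive by 14-3-3 binding, had a log2 fold change of −0.48 (SE 0.0542, adjusted p = 1.17e-05 in limma), and its dimmer probe had −0.29 without a call. Yap1, the Hippo pathway co-activator that 14-3-3 holds in the cytoplasm, had a log2 fold change of 0.40 (SE 0.0675, adjusted p = 4.25e-04 in limma). Without a call, the class II histone deacetylase Hdac5 had −0.37, the mTORC1 inhibitor Tsc2 −0.32 on its brightest probe and −0.33 on the other, and Bad 0.25. The Yap1 call was lost without control sample 1 (0.39), control sample 2 (0.34) or moR-21 sample 2 (0.33), and under normexp (0.49) and median scaling (0.38). Hdac5 was called without control sample 1 (−0.39) and without moR-21 sample 2 (−0.44), and under median scaling and cyclic loess (−0.38 each). Its dimmer probes had −0.26 and −0.15 without a call.

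Enzymes that write or erase the phosphorylated motifs were read from 37 genes, of which 27 were detected. Of these 3 fell, 2 rose and 22 were not called, beside 7.79% of all detected genes called, and the median was −0.01. Sgk1, a serum- and glucocorticoid-regulated kinase, had a log2 fold change of −0.54 (adjusted p = 5.35e-06 in limma) and the polarity kinase Mark3 had −0.41 (adjusted p = 9.14e-05 in limma). The catalytic subunits of calcineurin, a calcium-dependent phosphatase, moved apart, with Ppp3cb at −0.38 (adjusted p = 2.72e-05 in limma) and Ppp3ca at 0.47 (adjusted p = 5.92e-06 in limma). Prkacb, a catalytic subunit of protein kinase A, had 0.54 (adjusted p = 1.29e-06 in limma). The Mark3 call was lost without control sample 2 (−0.35) or moR-21 sample 2 (−0.36) and with its probes averaged (−0.26), and that of Ppp3cb without control sample 1 (−0.36) or moR-21 sample 1 or 3 (−0.37 each), while with probes averaged Ppp3ca (0.37) was not called.

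The study names Ywhaz in the IGF-1 and Myc-mediated apoptosis pathways, and 42 genes of these pathways were read, of which 32 were detected. Of these 1 fell, 1 rose and 30 were not called, beside 7.79% of all detected genes called, and the median was −0.01. Pik3cb, a catalytic subunit of PI 3-kinase, had a log2 fold change of −0.46 (adjusted p = 2.07e-05 in limma), and Trp53, the p53 tumour suppressor, had 0.41 (adjusted p = 2.33e-05 in limma). The Trp53 call was lost without control sample 1 (0.37). Without a call, the PI 3-kinase regulatory subunit Pik3r2 had −0.37, the transcription factor Jun 0.30 and the apoptosis initiator Casp9 0.29. Pik3r2 was called without control sample 1 (−0.39) and under normexp (−0.64), where Jun (0.58) was called as well and Pik3cb had −0.77. The dimmer probe of Pik3r2 had −0.24 without a call. Pik3r2, Jun and Pik3cb were dim, with a mean log2 signal of 7.61, 7.08 and 7.77 in control samples.

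Of 16 genes that are widely used as qPCR references, 12 were detected, of which 1 fell, 3 rose and 8 were not called, beside 4.38% of all detected genes called lower and 3.41% higher, and the median was 0.02. Tfrc, the transferrin receptor, had a log2 fold change of 0.74 (adjusted p = 2.13e-07 in limma), and its dimmer probe had 0.71, also called. The brighter probe had a mean log2 signal of only 7.13 in control samples, and a log2 fold change of 1.26 under normexp. Hprt, listed on the array as Hprt1, had 0.48 (adjusted p = 2.73e-05 in limma), and the glycolytic enzyme gene Gapdh had 0.41 (adjusted p = 8.36e-06 in limma). Gusb, a lysosomal glucuronidase, had −0.44 (adjusted p = 8.17e-06 in limma). The ribosomal protein gene Rplp0 had −0.25 without a call, its dimmer probe 0.01 and their average −0.12. With all probes of a gene averaged, Hprt1 (0.29) and Gusb (−0.25) were not called.

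**Figure D5:**
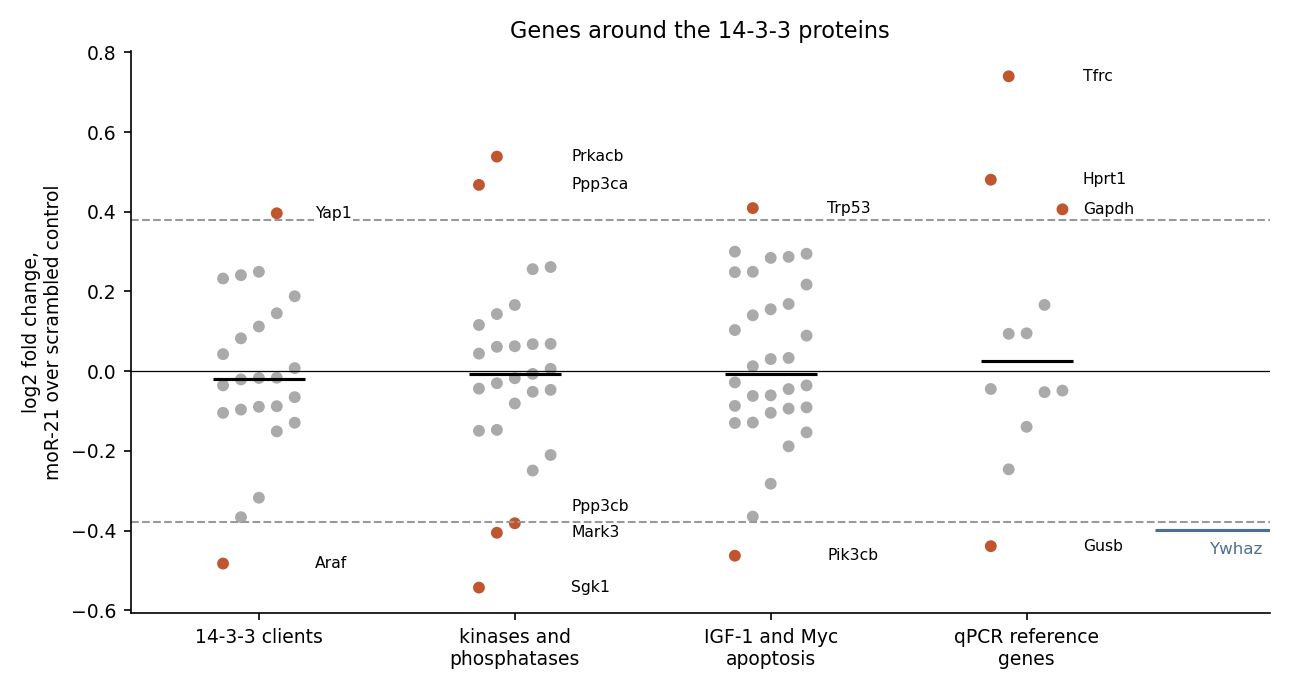
Log2 fold change of moR-21 over scrambled control samples (y axis) for the detected genes of 4 lists (x axis), each gene at its brightest probe. Orange points were called and are named, grey points were not, black bars are list medians, dashed lines mark a 1.3-fold change and the blue line at the right is Ywhaz at −0.40. Called genes lie on both sides of 0 in every list.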

How the data were processed

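RNA of 6 samples was measured on 8 Illumina mouse arrays. The authors deposited non-normalized probe intensities, with no background correction stated, and a detection p-value per probe and array. 0 columns were left without a sample.

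All 8 arrays were quantile normalized and log2 transformed, the arrays of a sample were averaged, and limma (lmFit, eBayes; version 3.58.1 in R 4.3.3) was fitted to 11651 probes, those that 1 or more arrays detected at p below 0.01. P-values were adjusted by Benjamini-Hochberg over these probes. Calls required a fold change past 1.3 and an adjusted p below 0.002, the cutoffs the study used. Genes of a list were read at their brightest detected probe. Named genes were all 14-3-3 probes, the called genes and the 5 largest changes of each list, and the 5 genes nearest to Ywhaz. Some genes of the lists are not reported here and were left out of their counts. The members and lists were chosen with earlier results of these data known. Alternatives covered background correction, scaling, detection filters, repeat arrays, variance model, replicate block, each sample left out, cutoffs and probe averaging. The fit was tested on simulated data, where 82 of 100 probes changed 1.5-fold and 98 of 100 changed 2-fold were called, with 0 false calls. Its noise was independent between probes and samples, and fewer probes were changed than were called in the data. These counts therefore need not hold for the data. Changes near the 1.3-fold cutoff, such as that of Ywhaz, were not simulated. Gene positions and miRNA sequences are from RefSeq (GRCm38.p6). Figures were drawn with matplotlib 3.10.9.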

Additional observations from a re-analysis of the deposited data

How the results depend on the processing

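The direction of Ywhaz was the same under all 20 alternatives, and the call held under 13 of them. The log2 fold change of Ywhaz is the same by construction under the detection filters, variance model, replicate block, changed cutoffs and probe averaging. Its direction could change only under the other alternatives. With normexp, 0 family probes were called, Ywhaz had a log2 fold change of −0.42 (adjusted p = 0.00322 in limma), and 1 client and 4 IGF-1 and Myc apoptosis genes were called. Under median scaling 0 family probes were called and Ywhaz had −0.42. With array B alone, and with all arrays as separate samples, 0 were called and Ywhaz had −0.35 and −0.38. Without a detection filter 1 client gene was called. With probes averaged 3 kinase or phosphatase and 2 reference genes were called. At a fold change over 1.5, 260 probes were called over the whole array instead of 811, with 0 family probes (Ywhaz at −0.40), 0 client, 0 kinase or phosphatase, 0 IGF-1 and Myc apoptosis and 1 reference gene. With each sample left out in turn, Ywhaz was between −0.44 and −0.33, the family probes called between 0 and 1 and the client genes called between 1 and 2. The dimmer Ywhab probe was between −0.00032, without moR-21 sample 2, and 0.12, without moR-21 sample 1. The other log2 fold changes of family probes, and those of the named list genes at their brightest probe and of the genes nearest to Ywhaz kept their direction where they could be computed.

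Sample numbers are shared between treatments. Deviations from the group means correlated at 0.187, 0.044 and 0.06 for samples 1, 2 and 3 across 11651 probes. The methods name no pairing of samples, so they were not taken as pairs. Between different numbers the correlation was 0.069 for control sample 3 with moR-21 sample 2, and between −0.129 and −0.01 for the other combinations. Not every sample thus correlated best with its own number. With the replicate block 815 probes were called, and Ywhaz had −0.40 (adjusted p = 8.48e-06 in limma). The block left the log2 fold changes as they were but lowered the adjusted p of the more variable family probes. In limma it was 0.00124 for Ywhaq, 4.61e-04 for Ywhag and 0.0309 for the brighter Ywhab probe. These were still under the fold cutoff, but their p-values depend on whether samples are paired by number. The number of samples, 3 per treatment, and dim probes limit these results: Ywhae did not pass the detection limit and was not tested.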
